A study of Mus musculus with 9 samples.

Results

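The rows described here code for the proteins of the cytosolic ribosome. They were chosen by name alone, as gene symbols made of Rpl or Rps and a number with at most a short suffix, together with Rplp0, Rplp1, Rplp2 and Rpsa, and they make up 84 of the 24062 rows of the count table. Of these, 33 belong to the small and 51 to the large ribosomal subunit, and 7 are paralogues marked by a suffix in the name (Rpl3l, Rpl7l1, Rpl10l, Rpl22l1, Rpl39l, Rps4l and Rps27l). RNA was sequenced from mouse embryonic fibroblasts (MEFs), primary connective tissue cells, of the C57BL/6 strain. Cells carried a lentivirus for p21 overexpression (3 libraries) or the empty lentiviral vector, called control here (3 libraries), or were titled as overexpressing p16 (3 libraries). All groups were labelled day 10, and the labels describe the p21 and p16 cells as senescent at that time. Control libraries carry the same senescent status label. The promoter of the vectors is not given in the sources used here. Nor is the origin of the replicates given, so a p-value here speaks of the spread among libraries, which may in part be technical. The p16 libraries were registered apart from the others and lack the status and lentivirus labels, so that any batch they form cannot be told apart from p16 itself.

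Each ribosome holds a single copy of almost every ribosomal protein, and the exceptions are the acidic proteins of the stalk that recruits translation factors. Vertebrate ribosomal protein mRNAs begin with a short run of pyrimidines, the terminal oligopyrimidine (TOP) motif, through which the growth kinase mTORC1 and the RNA-binding protein Larp1 control their translation and stability together. Several ribosomal proteins that are not built into ribosomes, Rpl5 and Rpl11 first among them, bind Mdm2 and so stabilise p53, the activator of the p21 gene. p21 and p16 are inhibitors of cyclin-dependent kinases, and both can hold cells in the lasting arrest called senescence.

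Stretches of promoter from 60 bases before to 20 bases after the annotated start are shown for 7 members. The results below compare members that hold certain TOP-like strings near the start with the rest. Sequences are those of RefSeq on GRCm38.p6, read 5′ to 3′ along the strand of the gene. Capitals mark TOP-like letters near the start, the ETS-factor core CCGGAAG or the TATA letters TATAAA. The TOP-like strings searched were CTCTTT (as in Rps6), CCTTTC (as in Rplp2), CTTTCC (as in Rpl38), CTTCCT (as in Rps10) and also CTTTTC, and they can overlap each other. Rps6, Rps10, Rpl35, Rpl28 and Rplp2 all hold such strings near the start, and Rps10 also holds the ETS-factor core. Rpl38 and Rpl22l1 are the members that stood above and below the rest of the family when p21 was set against p16.
Rps6, chr4:86857348-86857427, minus strand: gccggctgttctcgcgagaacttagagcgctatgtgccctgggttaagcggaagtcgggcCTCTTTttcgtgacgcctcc
Rps10, chr17:27635225-27635304, minus strand: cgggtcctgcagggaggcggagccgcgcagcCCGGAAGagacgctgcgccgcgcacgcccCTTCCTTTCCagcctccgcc
Rpl35, chr2:39005112-39005191, minus strand: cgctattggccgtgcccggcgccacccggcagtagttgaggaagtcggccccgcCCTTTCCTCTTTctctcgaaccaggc
Rpl28, chr7:4792905-4792984, plus strand: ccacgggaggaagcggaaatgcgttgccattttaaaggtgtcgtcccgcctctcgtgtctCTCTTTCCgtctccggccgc
Rplp2, chr7:141447591-141447670, plus strand: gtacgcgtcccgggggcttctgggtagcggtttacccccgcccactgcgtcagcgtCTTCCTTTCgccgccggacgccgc
Rpl38, chr11:114668520-114668599, plus strand: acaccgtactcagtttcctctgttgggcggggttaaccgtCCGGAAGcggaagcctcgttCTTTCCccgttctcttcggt
Rpl22l1, chr3:28805448-28805527, plus strand: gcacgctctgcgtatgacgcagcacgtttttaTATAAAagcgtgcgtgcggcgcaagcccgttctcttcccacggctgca

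A RefSeq promoter window was matched for 63 of the 84 members. On the sense strand, from 20 bases before to 40 after the start, 61.9% of these members held at least 1 of the TOP-like strings, against 13.4% of all promoters and 12.9% of those of tested genes. In the whole window, from 250 bases before to 50 after the start and on both strands, CCGGAAG was found in 41.3% of members, 18.3% of the promoters of tested genes and 9.93% of all promoters. The core of the YY1 site, ATGGCG, was found in 33.3% of members, 16.4% of the promoters of tested genes and 10.2% of all promoters. The E-box CACGTG, the site of Myc with its partner Max, was found in 9.52% of members, 11.4% of the promoters of tested genes and 8.09% of all promoters. The sense-strand TATA letters were found in 9.52% of members, 5.62% of the promoters of tested genes and 9.77% of all promoters. The GC box GGGCGG was found in 61.9% of members and 38.2% of all promoters, but in 67.7% of the promoters of tested genes. A match of letters is a description and does not show that a factor binds.

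Library totals ran from 56.9 M to 76.1 M counts (M, 10 to the power 6), and 14572 genes passed the filter on low counts. Cdkn1a, the p21 gene, stood at 1218, 1087 and 1085 CPM (counts per M counts of a library, after TMM normalisation) in the p21 libraries, 429, 435 and 394 CPM in the p16 libraries and 399, 383 and 317 CPM in the control libraries. Cdkn2a, the gene of p16, stood at 113, 94.3 and 79.6 CPM in the p21 libraries, 1069, 1036 and 944 CPM in the p16 libraries and 60.8, 68.8 and 59.6 CPM in the control libraries. Replicate 3 of each group stood apart in sex-linked transcripts. Xist was at 158 CPM in p21 replicate 3, 262 CPM in p16 replicate 3 and 397 CPM in control replicate 3. In the other libraries Xist was at no more than 1.34 CPM. Ddx3y was at 10.8 CPM in p21 replicate 3, 1.26 CPM in p16 replicate 3 and 1.1 CPM in control replicate 3. In the other libraries Ddx3y was at 50.1 to 68.5 CPM. The replicate 3 libraries were thus not alike across groups. Counts of members called are therefore also given for replicates 1 and 2 alone. Of 10 fibroblast markers, 10 passed the filter, and their summed level was 52509 to 55858 CPM in p21, 47711 to 54517 CPM in p16 and 35918 to 51343 CPM in control libraries. Dcn, which many fibroblasts express strongly, was low at 3.98, 2.68 and 2.19 CPM on average in p21, p16 and control libraries. The 14 macrophage markers summed to 26.6 to 47.3 CPM in p21, 11.1 to 15.6 CPM in p16 and 13.6 to 16.6 CPM in control libraries, with Cd163 at 0 in the controls. The 6 epithelial markers summed to 8.14 to 9.52 CPM, 6.6 to 8.36 CPM and 4.61 to 10.1 CPM, again in p21, p16 and control libraries. The 4 endothelial markers summed to 2.45 to 3.88 CPM in p21, 2.17 to 2.83 CPM in p16 and 2.43 to 4.18 CPM in control libraries.

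Per kilobase of transcript, the most abundant members were Rplp1, an acidic stalk protein, at 2501 CPM per kb in p21, 2581 in p16 and 2845 in control libraries, and Rps2, at 2165 CPM per kb in p21 and 2248 in p16 libraries. The 5 members with the most counts were Rps2, Rplp0, Rpsa, Rpl4 and Rplp1. Of the 77 members that are not suffixed paralogues, 73 reached 10 CPM. The other 4 had rows far below the rest although each ribosome needs their proteins. Rpl26 had 0 counts in all 9 libraries, which allows at most 0.0394 to 0.0528 CPM depending on the library (3 counts of its total; counting error only). Rpl30 stood at 0.702, 0.497 and 0.648 CPM in p21, 0.426, 0.631 and 0.712 CPM in p16 and 0.704, 0.481 and 0.404 CPM in control libraries. Rps27 stood at 1.57, 1.14 and 1.52 CPM in p21, 1.28, 1.32 and 1.25 CPM in p16 and 1.32, 1.28 and 1.27 CPM in control libraries. Rpl34 stood at 2.04, 2.51 and 2.15 CPM in p21, 3.05, 3.37 and 2.41 CPM in p16 and 4.53, 3.2 and 3.11 CPM in control libraries. GENCODE M21 names 300 genes as ribosomal protein pseudogenes, most of them absent from the table, and how reads that map to several places were counted is not given in the sources used here. Levels of these 4 rows are therefore uncertain. Exons of 38 of the 84 members also overlap an exon of another annotated gene, for example small RNA genes within Rpl3 and Rpsa, and the libraries carry no strand mark.

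**Figure D1:**
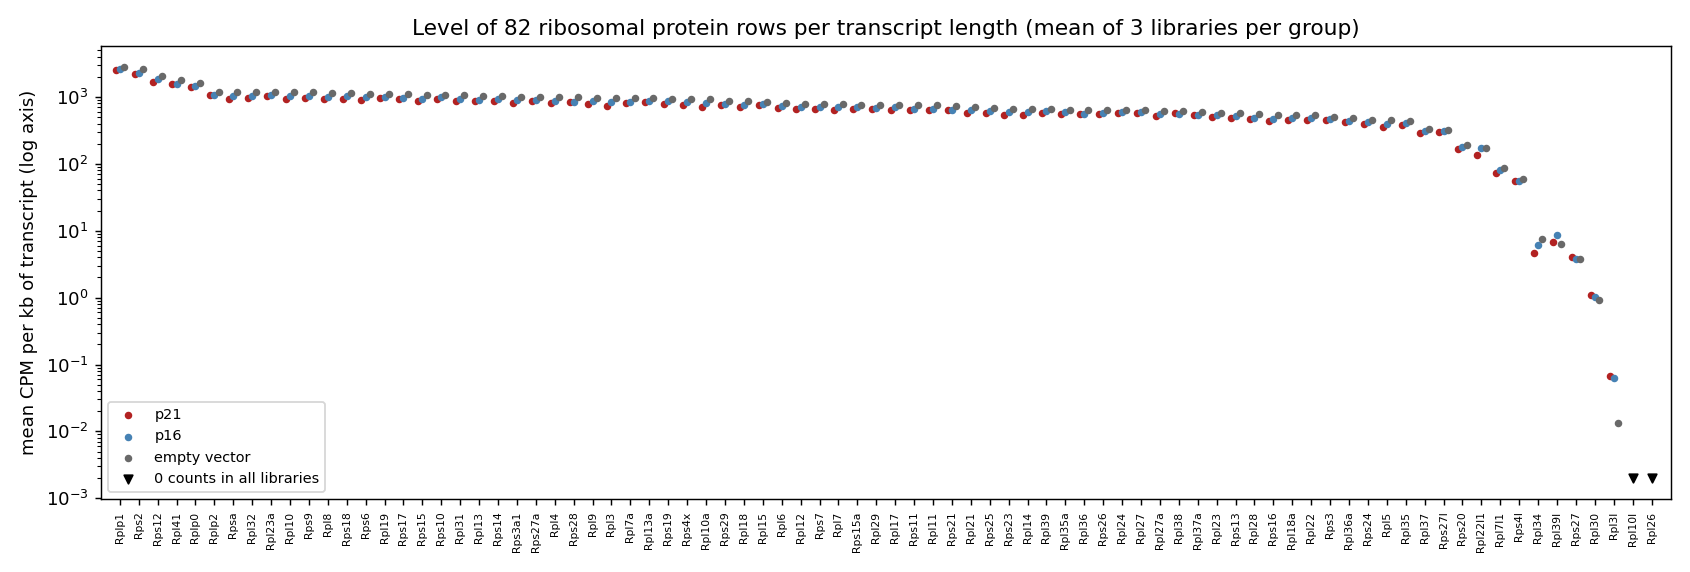
Mean CPM per kb of transcript (log axis) of each of 82 rows in p21 (red), p16 (blue) and empty-vector (grey) libraries, 3 per group, in order of the empty-vector level. Most rows lie within a narrow band, while Rpl34, Rps27, Rpl30 and the paralogues Rpl39l and Rpl3l lie far below it and the triangles mark Rpl26 and Rpl10l, with 0 counts in all libraries.

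The family as a whole took the smallest share of the library in p21 cells and the largest in control cells. Members summed to 4.35%, 4.33% and 4.42% of all counts in p21 libraries, 4.81%, 4.57% and 4.81% in p16 libraries and 5.44%, 5.32% and 5.3% in control libraries. The groups did not overlap. The share was 4.37% ± 0.0475 in p21, 4.73% ± 0.137 in p16 and 5.35% ± 0.0754 in control libraries (mean ± SD, n = 3 each). It was 18.5% lower in p21 and 11.6% lower in p16 than in control cells, as a fraction of the control share, and 7.71% lower in p21 than in p16 cells. No test was made of this sum, since the members were chosen with earlier results known. In bulk RNA, a lower level per cell and fewer cells with a high level cannot be told apart, and a lower share of the library does not show a lower amount per cell.

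**Figure D2:**
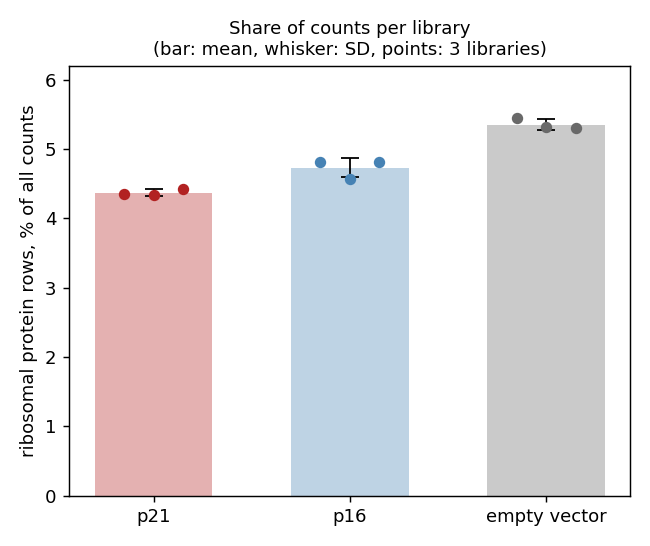
Summed counts of the 84 rows as a percentage of all counts, for p21, p16 and empty-vector libraries. Bars are means, whiskers the SD and points the 3 libraries of each group, which lie at 4.33 to 4.42%, 4.57 to 4.81% and 5.3 to 5.44%.

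Against control, p21 cells had lower levels of nearly the whole family, by a small and even amount. Of 81 members tested, 74 fell and 0 rose at an adjusted p under 0.05 (edgeR quasi-likelihood test on the 9 libraries, Benjamini-Hochberg over all 14572 genes), against 20.7% of all tested genes that fell and 19.3% that rose. At an unadjusted p under 0.05, 0 members were higher, and DESeq2 also called 0 higher. The median log2 fold change was -0.25, which is a level 15.7% lower, against -0.011 over all tested genes. Without a test of the list, these are descriptions of counts. In 76 members every p21 library lay below every control library, as in 25.7% of all tested genes. The fall covered both subunits, with 30 of 33 small-subunit members (median -0.25) and 44 of 48 large-subunit members (median -0.24). Among the 73 members that are not paralogues and reached 10 CPM, 71 fell, and log2 fold changes lay between -0.40 and -0.11. Over all the alternative fits, leave-one-out fits included, 70 to 77 members were called, with 72 from replicates 1 and 2 alone. Of the members not called, Rpl38, Rpl24, Rps27l and Rps4l lay a little below control, and Rpl39l, Rps27 and Rpl30 had few counts.

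**Figure D3:**
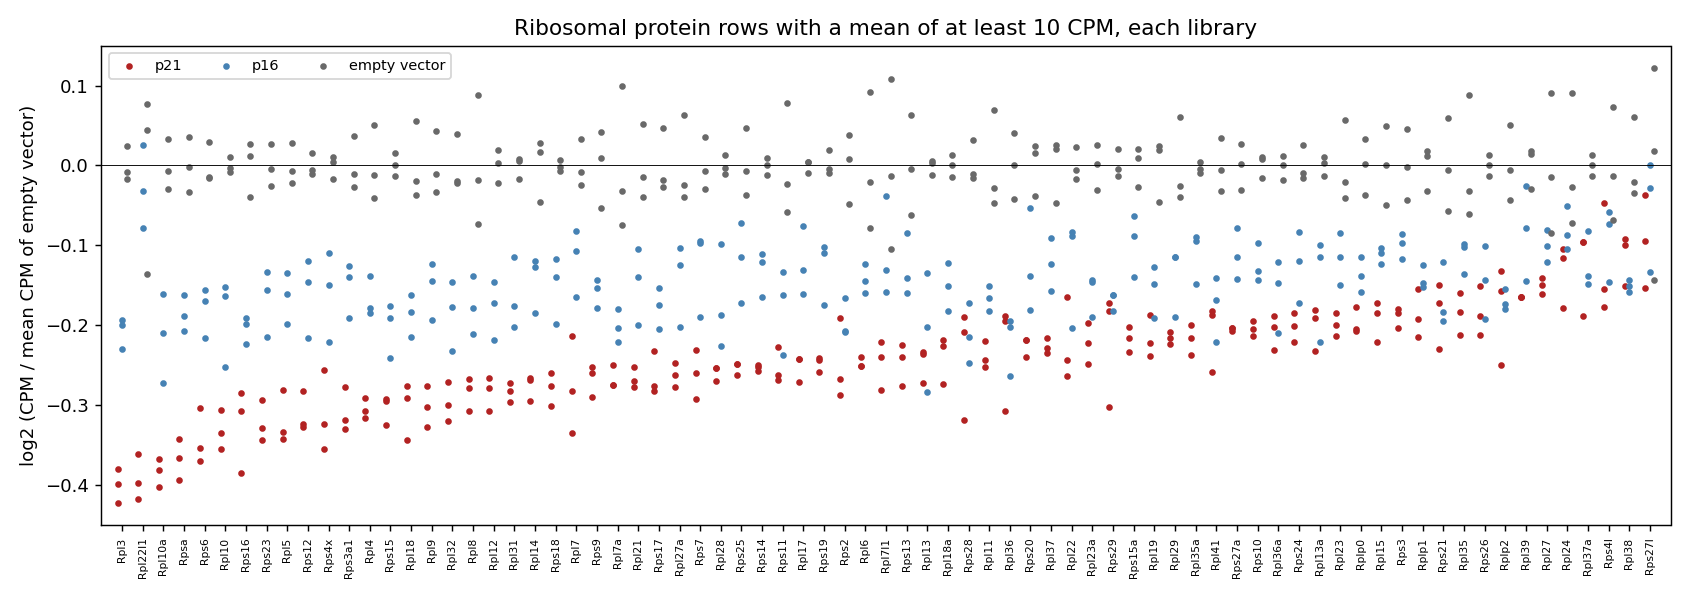
Each library's CPM over the empty-vector mean of the same row (log2), for 75 tested rows with a mean of at least 10 CPM, ordered by their p21 change. Red p21 points lie below the grey empty-vector points for nearly every row and the blue p16 points mostly between them, while Rpl22l1 has p16 points among the empty-vector points.

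In the large subunit, Rpl3 and Rpl10a changed most among the members of high level that are not suffixed paralogues. Rpl3 (chromosome 15, 80077791 to 80091868), which reaches towards the peptidyl transferase centre, had 975, 991 and 1004 CPM in p21, 1143, 1114 and 1138 CPM in p16 and 1329, 1300 and 1292 CPM in control libraries. The 3 groups did not overlap. Its log2 fold change was -0.40 ± 0.038 (SE) in p21 against control, with an edgeR adjusted p of 5.5e-05. Rpl10a (chromosome 17, 28328471 to 28331033), the protein of the stalk beside the tRNA exit site, had 515, 523 and 528 CPM in p21, 589, 564 and 609 CPM in p16 and 667, 678 and 697 CPM in control libraries. These groups did not overlap either, and the p21 change was -0.38 ± 0.043 (edgeR adjusted p = 0.000141). Rpl10, which is added late in the making of the large subunit, fell by 0.33 on the log2 scale (edgeR adjusted p = 0.00027).

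In the small subunit, Rpsa (chromosome 9, 120127689 to 120132369), also known as a laminin receptor at the cell surface, had 1446, 1498 and 1474 CPM in p21, 1698, 1645 and 1667 CPM in p16 and 1948, 1898 and 1856 CPM in control libraries. Its log2 fold change was -0.37 ± 0.040 in p21 against control (edgeR adjusted p = 0.000129). Each p21 library was below each p16 library, and each p16 library below each control library. Rps6 (chromosome 4, 86854660 to 86857412), the target of the S6 kinases downstream of mTORC1, had 771, 762 and 798 CPM in p21, 884, 848 and 876 CPM in p16 and 1005, 974 and 975 CPM in control libraries. Its p21 change was -0.34 ± 0.040 (edgeR adjusted p = 0.000187). Rps19, the member most often mutated in Diamond-Blackfan anaemia in humans, and Rps14, the member lost in a human myelodysplastic syndrome, changed by -0.25 each. Rps25, which some viral mRNAs need for translation without a cap, and Rps27a, made as a fusion with ubiquitin, changed by -0.25 and -0.21. All 4 passed the test (edgeR adjusted p between 0.000583 and 0.00229) in every alternative fit.

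Some of the members known to bind Mdm2 were in the panel. Rpl5 had 721, 717 and 748 CPM in p21, 813, 792 and 828 CPM in p16 and 927, 895 and 905 CPM in control libraries. Its log2 fold change in p21 against control was -0.32 ± 0.040 (edgeR adjusted p = 0.00028). Rpl11, its partner in the particle that carries the smallest ribosomal RNA, had 527, 536 and 524 CPM in p21, 562, 550 and 556 CPM in p16 and 655, 612 and 604 CPM in control libraries, and fell by 0.24 in p21 (edgeR adjusted p = 0.00194). Rpl23 fell by 0.20 (edgeR adjusted p = 0.00456), as did Rps7 by 0.26 and Rps3, also a DNA repair enzyme, by 0.19. All 5 were called in every alternative fit. Rpl26, which binds the p53 mRNA in human cells, had no counts and could not be compared.

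The proteins of the stalk changed a little less than the median member in p21 against control. Rplp0, its base, had 1868, 1908 and 1872 CPM in p21, 1992, 1932 and 1959 CPM in p16 and 2207, 2160 and 2103 CPM in control libraries. Rplp1 had 1243, 1276 and 1224 CPM in p21, 1303, 1282 and 1278 CPM in p16 and 1438, 1432 and 1389 CPM in control libraries. Rplp2 had 451, 459 and 423 CPM in p21, 452, 446 and 444 CPM in p16 and 521, 501 and 488 CPM in control libraries. In each of the 3, control libraries lay above all others, and the p21 libraries lay below all p16 libraries in Rplp0 and Rplp1 but overlapped them in Rplp2. Log2 fold changes in p21 against control were -0.20, -0.19 and -0.18 (edgeR adjusted p = 0.00374, 0.00432 and 0.0112). Relative to the summed family, in the second fit described below, 0 of the 3 were lower or higher at an unadjusted p under 0.05 (edgeR). Their smaller change was therefore not told apart from that of the family. Rpl41, the smallest member, and Rpl13a, which is also a translational repressor after interferon in human cells, changed by -0.21 and -0.20 (edgeR adjusted p = 0.00394 and 0.00549).

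The smallest p21 changes among members of at least 10 CPM that are not suffixed paralogues were those of Rpl38, Rpl37a and Rpl24. Rpl38 (chromosome 11, 114668524 to 114672331), which mouse embryos need for the translation of Hox mRNAs, had 197, 198 and 190 CPM in p21, 191, 189 and 190 CPM in p16 and 220, 208 and 206 CPM in control libraries. All control libraries were above the others, and the p21 and p16 libraries overlapped. Its p21 change of -0.11 ± 0.042 did not pass the test (edgeR adjusted p = 0.0559), but it passed with control replicate 3 left out (adjusted p = 0.0419). Rpl37a had 306, 306 and 287 CPM in p21, 297, 295 and 309 CPM in p16 and 330, 327 and 324 CPM in control libraries. Its change of -0.13 passed narrowly (edgeR adjusted p = 0.0383) and failed without any single control or p21 library, and without p16 replicate 1 or 2, at adjusted p-values from 0.0538 to 0.141. Rpl24, a protein of the bridge between subunits, had 396, 399 and 379 CPM in p21, 404, 399 and 414 CPM in p16 and 457, 421 and 408 CPM in control libraries, and the p16 and control libraries overlapped. Its p21 change of -0.13 had an edgeR adjusted p of 0.0632, and of 0.0335 without control replicate 3. The low row of Rpl34 fell by 0.69 ± 0.19 in p21 (edgeR adjusted p = 0.0159), which did not pass without p21 replicate 1 (edgeR adjusted p = 0.0636).

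Members were lower in p16 cells than in control cells too, with a smaller median change. Of 81 members, 33 fell and 0 rose (edgeR adjusted p under 0.05), against 3.65% of all tested genes that fell and 3.57% that rose. At an unadjusted p under 0.05, 70 were lower and 0 higher, against 12.9% of all tested genes lower. DESeq2 called 56, against 6.01% of all tested genes lower. The median log2 fold change was -0.15, a level 9.93% lower, against -0.01 over all tested genes. Every p16 library lay below every control library in 70 members, as in 15.1% of tested genes, and among tested members Rpl39l alone had every p16 library above. Small-subunit members gave 14 of the calls and large-subunit members 19. Replicate numbers paired these libraries by the rule used here, and with the replicate as a block 52 members were called, against 8.38% of all tested genes lower. The number of calls hung on single libraries, and the share of all tested genes called lower fell in the same fits. It was 8, 0 and 13 members without control replicate 1, 2 or 3, against 2.49%, 1.23% and 2.83% of all tested genes lower. It was 0, 0 and 5 without p16 replicate 1, 2 or 3, against 0.721%, 0.467% and 1.21%. Without p21 replicate 1 or 2, which enter through the shared estimate of spread, it was 6 and 17, against 2.4% and 2.72%. Replicates 1 and 2 alone gave 2 calls, against 1.67%. The median stayed between -0.17 and -0.13 in all these fits. Both comparisons use the same 3 control libraries.

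In p16 cells the largest falls among well-counted members were those of Rpl36, Rpl10a and Rps28. Rpl36 had 215, 214 and 198 CPM in p21, 213, 204 and 214 CPM in p16 and 252, 245 and 238 CPM in control libraries. The p21 and p16 libraries overlapped, and both groups lay below control. Its log2 fold change was -0.22 ± 0.047 in p16 against control (edgeR adjusted p = 0.0256). Rps28, which lies at the mRNA exit, had 234, 231 and 214 CPM in p21, 230, 225 and 237 CPM in p16 and 273, 265 and 264 CPM in control libraries, with a change of -0.21 (edgeR adjusted p = 0.0295) that was -0.13 (adjusted p = 0.111) after correction for transcript length. Rpl10a changed by -0.21, Rpl3 by -0.21 and Rpsa by -0.19 in p16 against control (edgeR adjusted p = 0.0203, 0.0148 and 0.0256). Each of these calls was lost without control replicate 2, p16 replicate 1 or p16 replicate 2, and most also in other leave-one-out fits.

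Set against each other, p21 cells lay below p16 cells. Of 81 members, 13 were lower and 0 higher (edgeR adjusted p under 0.05), against 6.64% of all tested genes that were lower and 6.19% that were higher. At an unadjusted p under 0.05, 41 were lower and 0 higher, against 14.7% of all tested genes lower. The median log2 fold change was -0.10, a level 6.87% lower, against -0.007 over all tested genes. Every p21 library was below every p16 library in 58 members, as in 18.5% of tested genes. Among those called were Rpl3, Rpl5, Rpl7, Rpl9, Rpl10a and Rpl22l1 of the large subunit and Rps3a1, Rps6, Rps12, Rps23 and Rpsa of the small subunit. Rpl3, for example, changed by -0.19 and Rps6 by -0.16 (edgeR adjusted p = 0.0114 and 0.029). With the replicate as a block 23 members were called, DESeq2 called 27, and 39 were called after correction for transcript length, against 12.2%, 8.85% and 6.52% of all tested genes lower in the same fits. Without p21 replicate 1, 2 or 3 there were 1, 4 and 9 calls, against 2.2%, 3.36% and 6.29% of all tested genes lower. Without p16 replicate 1, 2 or 3 there were 1, 6 and 2, against 3.1%, 3.26% and 3.58%. Without control replicate 1 or 2 there were 21 and 4, against 8.87% and 4.89%. Replicates 1 and 2 alone gave 2 calls, against 6.22%. Rpl22l1 was called in every one of these fits. All 3 p21 libraries lay below all 3 p16 libraries, and these below all 3 control libraries, in 54 members, as in 7.78% of tested genes.

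Of the called members not yet described, some were picked after their values were seen. Rps23, a protein of the decoding centre, had 496, 508 and 491 CPM in p21, 559, 537 and 568 CPM in p16 and 635, 621 and 612 CPM in control libraries. Its log2 fold change was -0.16 ± 0.040 in p21 against p16 (edgeR adjusted p = 0.0346). Its 3 groups did not overlap. Rps12, of the small-subunit head, had 803, 805 and 829 CPM in p21, 911, 868 and 928 CPM in p16 and 1004, 1001 and 1019 CPM in control libraries. Rpl7 had 718, 745 and 781 CPM in p21, 841, 808 and 856 CPM in p16 and 927, 901 and 891 CPM in control libraries, and its contrast between p21 and p16 was close to the threshold (edgeR adjusted p = 0.0497). By comparison, Rps2, the member with the most counts and a protein of the mRNA entry, had 2132, 2247 and 2102 CPM in p21, 2287, 2220 and 2223 CPM in p16 and 2635, 2581 and 2481 CPM in control libraries. Its p21 and p16 libraries overlapped, and the contrast between them was -0.054 (edgeR adjusted p = 0.466), while p21 and p16 each passed against control (edgeR adjusted p = 0.0021 and 0.0334).

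**Figure D4:**
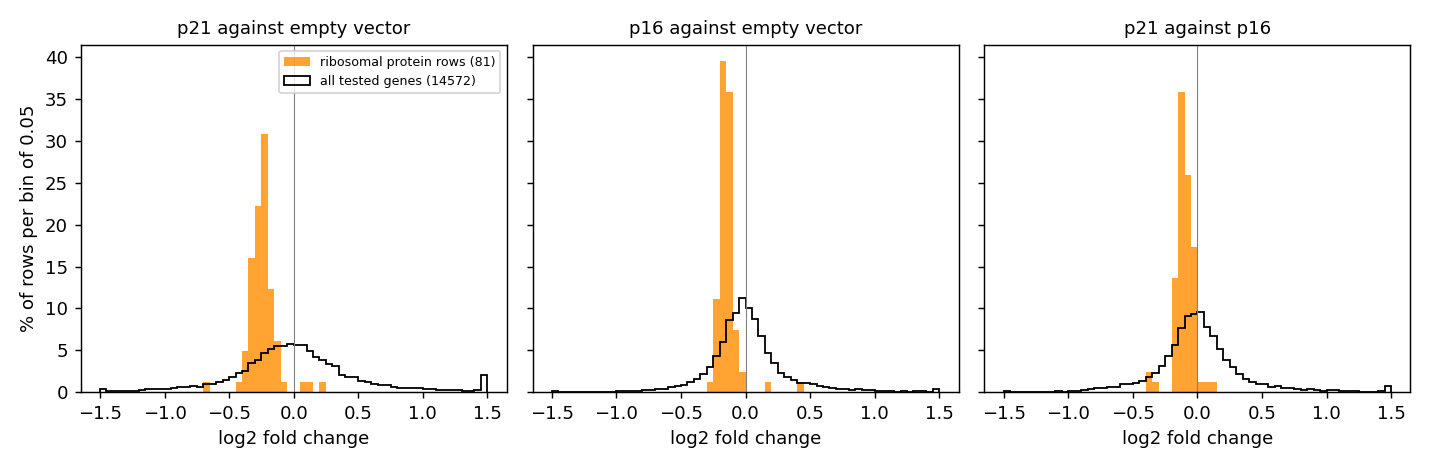
Log2 fold changes of the 81 tested rows (orange) and of all 14572 tested genes (black outline), as percentages per bin of 0.05, for p21 and p16 against empty vector and for p21 against p16. The end bins also hold all genes beyond 1.5 in either direction, and the rows form a narrow peak below 0 with medians of -0.25, -0.15 and -0.10.

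A second fit asked which members moved apart from the rest, by taking the summed counts of the family in place of the library total. On this scale a value of 0 means that a member changed as the family did. In p21 against control, 4 of 81 members were lower and 3 higher than the family, against 6.31% and 45.2% of all tested genes. With an unadjusted p under 0.05 (edgeR), 5 were lower and 8 higher. The adjustment ran over all tested genes, many of which lie above the family on this scale because its share of counts fell. An adjusted p under 0.05 on this scale therefore does not limit false calls among the members to that rate. Rpl3 was lower at -0.14 ± 0.036 (edgeR adjusted p = 0.00867), and it was called in all 16 alternative fits. Rpl10a (-0.12) and Rpsa (-0.11) were also lower, at edgeR adjusted p-values of 0.0363 and 0.0328, and were called in 7 and 5 of 16. Rpl38 was higher at 0.15 ± 0.040 (edgeR adjusted p = 0.0117), Rpl37a at 0.13 ± 0.041 (0.0212) and Rpl24 at 0.13 ± 0.043 (0.0305), called in 14, 13 and 10 of 16. Without p21 replicate 1 the call of Rpl3 alone was left. Without control replicate 2 or 3 there were 2 and 3 calls, without p21 replicate 2 or 3 there were 3 and 4, and without p16 replicate 1 there were 4. In p16 against control 0 members stood apart (edgeR), against 1.13% of tested genes lower and 22.6% higher. At an unadjusted p under 0.05, 0 were lower and 1 higher, DESeq2 called 0, and 1 was called with the replicate as a block and also without p21 replicate 2. In p21 against p16, Rpl22l1 was lower at -0.26 ± 0.067 and Rpl38 higher at 0.14 ± 0.040 (edgeR adjusted p = 0.0234 and 0.0353), against 3.2% and 16.2% of tested genes. They were called in 10 and 9 of 16 alternative fits, and 0 calls were left without p21 replicate 1, p16 replicate 1 or p16 replicate 3, and 1 without control replicate 2, p21 replicate 2 or p21 replicate 3.

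**Figure D5:**
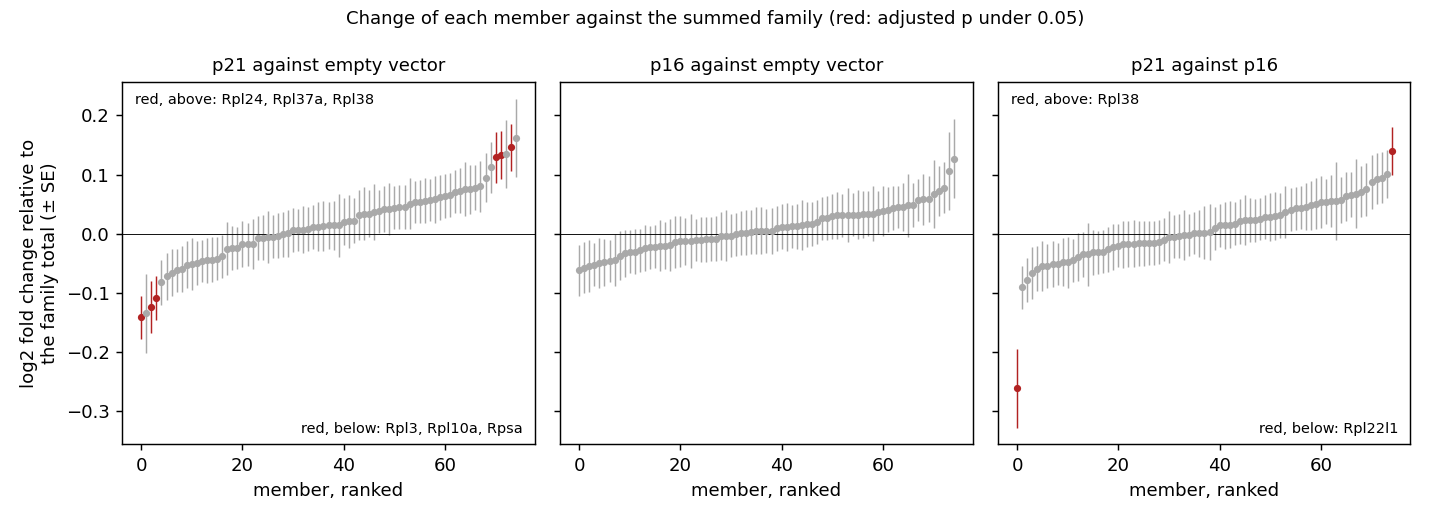
Log2 fold change of each of 75 tested rows with a mean of at least 10 CPM relative to the summed family, ranked, with standard errors, for p21 and p16 against empty vector and p21 against p16. Red points passed an adjusted p under 0.05 and are named in the panels: Rpl3, Rpl10a and Rpsa below and Rpl24, Rpl37a and Rpl38 above for p21 against empty vector, 0 rows for p16 against empty vector, and Rpl22l1 below and Rpl38 above for p21 against p16.

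Several members have a paralogue that can replace them in some tissues. Rpl22, an RNA-binding member that mice can live without, had 212, 209 and 224 CPM in p21, 236, 218 and 237 CPM in p16 and 250, 248 and 255 CPM in control libraries. It fell by 0.22 in p21 (edgeR adjusted p = 0.00501), and its p16 change of -0.12 did not pass (adjusted p = 0.154). Rpl22l1 (chromosome 3, 28805436 to 28807424), its paralogue, had 75.3, 73.4 and 72.4 CPM in p21, 98.4, 91.6 and 94.6 CPM in p16 and 88, 102 and 99.7 CPM in control libraries. The p21 libraries lay below all others, while p16 and control libraries overlapped. Its log2 fold change was -0.39 ± 0.061 in p21 against control (edgeR adjusted p = 0.000921), -0.028 in p16 against control (adjusted p = 0.832) and -0.36 ± 0.061 in p21 against p16 (adjusted p = 0.00603). That last contrast tests the difference between the p21 and p16 effects. An annotated gene lies opposite Rpl22l1, so its counts may include reads of that gene.

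Rps27l, the paralogue of Rps27 and a known p53 target, had 148, 154 and 142 CPM in p21, 158, 155 and 144 CPM in p16 and 172, 160 and 143 CPM in control libraries. The groups overlapped, and neither its p21 change of -0.099 nor its p16 change of -0.053 passed the test (edgeR adjusted p = 0.295 and 0.706). Rps4x, on the X chromosome, had 735, 719 and 770 CPM in p21, 829, 789 and 853 CPM in p16 and 927, 909 and 923 CPM in control libraries, and fell by 0.31 in p21 (edgeR adjusted p = 0.000602). Its paralogue Rps4l had 50.4, 54.3 and 49.6 CPM in p21, 53.3, 53.9 and 50.7 CPM in p16 and 55.6, 59 and 53.5 CPM in control libraries, a change of -0.13 in p21 that did not pass (edgeR adjusted p = 0.0991). Rpl7 fell by 0.28 and Rpl7l1, its paralogue, by 0.25 in p21 (edgeR adjusted p = 0.00125 and 0.00898). Rpl39, at the exit of the peptide tunnel, had 356 CPM in each p21 library, 378, 361 and 392 CPM in p16 and 391, 404 and 403 CPM in control libraries. It fell by 0.16 in p21 (edgeR adjusted p = 0.0122), which did not pass once p21 replicate 1 was left out (edgeR adjusted p = 0.0576). Rpl39l, known from male germ cells, had 2.56, 5.48 and 3.15 CPM in p21, 5.16, 4.36 and 4.68 CPM in p16 and 3.03, 3.97 and 3.46 CPM in control libraries. The p16 libraries lay above control, and the change of 0.44 ± 0.25 did not pass (edgeR adjusted p = 0.307). Without p21 replicate 2, Rpl39l was lower in p21 than in p16 (edgeR adjusted p = 0.0384, against 0.4 with all libraries). Rpl10l, a germ cell paralogue of Rpl10, had 0 counts in all 9 libraries. Rpl3l, the paralogue of striated muscle, had 4, 7 and 7 counts in p21, 8, 3 and 6 in p16 and 0, 2 and 2 in control libraries and was not tested. Of the 4 members on the X chromosome (Rpl10, Rpl36a, Rpl39 and Rps4x), 4 fell in p21 and 2 in p16. Of all 81 tested members, 74 and 33 fell, beside 20.7% and 3.65% of all tested genes.

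Members with and without TOP-like letters near the start moved by like amounts. This split cannot compare TOP with other mRNAs. Ribosomal protein mRNAs begin with a TOP motif, which the letters searched can miss. The median log2 fold change in p21 against control was -0.25 in the 37 tested members with such letters and -0.25 in the 23 without. In p16 against control the medians were -0.15 with and -0.13 without, and in p21 against p16 they were -0.10 in both. Among 1358 other tested genes with the letters the p21 median was 0.0, against -0.012 in 9355 others without. Most members are short transcripts. Over all genes of under 1000 bases the median p21 change was 0.015, against -0.021 for those of 3000 bases and over. In p16 against control the same medians were -0.026 and -0.004, and in p21 against p16 they were 0.035 and -0.024.

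Genes of the translation machinery outside the family were compared in the same way. Of 4 ribosome components outside the naming rule, 3 fell in p21 (median -0.16), namely Rack1, listed as Gnb2l1, a signalling scaffold on the small subunit (-0.25, edgeR adjusted p = 0.000793), Rpl36al (-0.19, adjusted p = 0.0244) and Fau (-0.14, adjusted p = 0.0243). The Rpl36al call was lost without control replicate 1, p21 replicate 2 or p21 replicate 3 (adjusted p from 0.0615 to 0.0758). That of Fau was lost without control replicate 2 or any single p21 library (adjusted p from 0.061 to 0.0961). Of 26 translation factors and other TOP mRNA genes, 13 fell and 0 rose in p21 against control, with a median of -0.16, against 20.7% of all tested genes that fell and 19.3% that rose. Eef1a1, the factor that brings tRNAs to the ribosome, averaged 7233 ± 116 CPM in p21, 8043 CPM in p16 and 8939 ± 164 CPM in control libraries (SD, n = 3), a p21 change of -0.31 (edgeR adjusted p = 0.000571). Eif4b, an initiation factor phosphorylated by S6 kinase, changed by -0.30 and Naca, a chaperone of nascent chains, by -0.24 (edgeR adjusted p = 0.00024 and 0.0023). The splicing regulator Hnrnpa1 changed by -0.61 (edgeR adjusted p = 0.000408) at a low level of 5.62 ± 0.323 CPM in p21 and 8.59 ± 0.385 CPM in control libraries. As for the low rows of the family, how multi-mapping reads were counted is not given, so the level of this row is uncertain. Of the same 26, 2 fell in p16 against control, beside 3.65% of all tested genes, and 3 were lower in p21 than in p16, beside 6.64%, and all of these calls were lost in some leave-one-out fits.

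A list of 17 genes held the signalling that acts on TOP mRNAs, together with Myc, Max, Trp53 and other genes around Myc and p53. It therefore does not describe mTORC1 signalling alone. Of the 17, 5 fell and 4 rose in p21 against control, with a median of -0.05. These counts are near the shares of all tested genes, 20.7% that fell and 19.3% that rose. Myc, an activator of ribosomal protein genes, averaged 90.1 ± 4.75 CPM in p21, 102 CPM in p16 and 117 ± 5.75 CPM in control libraries, and fell by 0.37 in p21 (edgeR adjusted p = 0.00112). Its partner Max rose by 0.25 and Akt1s1, an inhibitor of mTORC1, by 0.36 in p21 (0.00239 each, edgeR adjusted p). Trp53, which codes for p53, fell by 0.28 (edgeR adjusted p = 0.00592). In p16 against control 0 of the 17 were called in either direction (edgeR), with 3 at an unadjusted p under 0.05. Of 15 chaperones, importers and exporters that serve ribosomal proteins and subunits, 7 fell and 0 rose in p21 (median -0.16), again against 20.7% of all tested genes that fell and 19.3% that rose. Xpo1, the export receptor of both subunits, averaged 98.8 ± 2.26 CPM in p21, 124 CPM in p16 and 129 ± 1.55 CPM in control libraries, and fell by 0.39 against control (edgeR adjusted p = 0.000422). It was also lower in p21 than in p16, by 0.33 on the log2 scale (edgeR adjusted p = 0.00497), in every alternative fit. Tsr2, the carrier of Rps26, Bccip, the carrier of Rpl23, and Kpnb1, a nuclear importer, changed by -0.34, -0.31 and -0.26 in p21 (edgeR adjusted p = 0.00849, 0.00624 and 0.0117). Against control, 0 of the 15 were called in p16 cells (edgeR), with 4 at an unadjusted p under 0.05.

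Macrophage markers moved with the p21 group. Of 13 tested, 9 rose in p21 against control and 0 in p16, beside 19.3% and 3.57% of all tested genes. All 14 markers summed to 26.6 to 47.3 CPM in p21 libraries, against 13.6 to 16.6 CPM in control libraries. The members sum to over 4% of all counts in every library. The part of other cells in the lower level of the family was not tested.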

How the data were processed

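RNA of 9 libraries was made into sequencing libraries with a TruSeq kit that does not mark strand, per the labels' protocols. The values deposited by the authors are raw read counts, 1 row per gene symbol, with no normalisation. The submitters' processing notes name featureCounts 1.4.6, Subread, Bowtie2 2.2.6 and TopHat2 2.0.14 with mm10. How multi-mapping reads, strand and annotation were handled is not given in the sources used here. Groups and replicate numbers come from the titles.

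Counts were tested in edgeR 4.0.16 (R 4.3.3, limma 3.58.1) with its quasi-likelihood F test, TMM normalisation, filterByExpr, 1 fit of 3 group means, Benjamini-Hochberg adjustment over 14572 genes and a threshold of 0.05. The SE is the fold change over the root of F. A second fit took the members' summed counts as library size. Code was tested on simulated counts. Replicates differed by more than sampling noise (chi-square per degree of freedom 10.37 to 101.2), and none were merged. Positions and lengths are those of GENCODE M21 (GRCm38, also called mm10), with the shortest principal transcript of a gene as its length. All promoter windows are RefSeq's, on GRCm38.p6.

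Same-numbered p16 and control libraries deviated together (correlations 0.251, 0.109 and 0.545), as did p21 and p16 libraries (0.159, 0.287 and 0.478). By the rule that each exceed 0.1, these numbers were taken as pairs from the data alone. The main fit had no term for pairs, unlike the replicate block. Named members are a fixed panel, the 3 largest changes in each direction, those that stood apart from the family and those not tested; other lists give up to 4 members by lowest adjusted p. A few genes enter the fits and counts but are not reported here by name. The members, lists and tests were chosen with earlier results of these data known. Alternatives were other scalings, offsets by abundance or length, DESeq2 1.42.0, other filters, a fit of the compared groups alone, a replicate block, each library left out, and replicates 1 and 2 alone.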

Additional observations from a re-analysis of the deposited data

How the results depend on the processing

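Directions of the family median did not change in any of 21 alternatives per comparison, where it lay between -0.281 and -0.223 in p21 against control, -0.173 and -0.128 in p16 against control and -0.145 and -0.085 in p21 against p16. Calls in p21 against control numbered 70 to 77, with 77 under a replicate block and 70 to 75 with 1 library left out. For these groups, same-numbered libraries had correlations of 0.183, 0.0253 and 0.489, which missed the rule that each exceed 0.1. That rule cannot show these libraries to be unpaired, since p21 and control libraries were each taken as pairs with p16 libraries. Calls in p16 against control (33) numbered 56 with DESeq2, 52 with the replicate block, 19 without a count filter, 1 in a fit of the 6 libraries alone, 2 from replicates 1 and 2, and 0 to 22 with 1 library left out. Calls in p21 against p16 (13) numbered 39 with length offsets, 27 with DESeq2, 23 with the replicate block, 8 without a count filter, 2 from replicates 1 and 2, and 1 to 21 with 1 library left out. With 1 library left out, 0.467% to 3.31% of all tested genes were lower in p16 against control, and 2.2% to 8.87% in p21 against p16.

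Relative to the family total, the 7 calls in p21 against control became 11 with the replicate block, 3 in the fit of those groups alone, 3 from replicates 1 and 2, and 1 to 9 with 1 library left out, and stayed at 7 with length offsets, an alternative chosen after seeing the data. For p16 against control there was 1 call in the fit of those groups alone, 1 with the replicate block, and 0 to 1 with 1 library left out. In p21 against p16 the 2 calls became 1 without a count filter, 0 from replicates 1 and 2, and 0 to 2 with 1 library left out. The share of counts without the 5 most abundant members was 3.58% in p21, 3.88% in p16 and 4.39% in control libraries.

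Among the named values followed under the alternatives, signs changed only in those that were not called, most of them near 0, but that of Rpl39l with a wide range. Rpl22l1 in p16 against control was 0.002 from replicates 1 and 2 and ranged from -0.086 to 0.016 with 1 library left out. Rps27l in p16 against control ranged from -0.121 to 0.018, and Rpl39l in p21 against control from -0.285 to 0.321. Rpl36 in p21 against p16 was 0.001 with upper-quartile scaling, 0.039 from replicates 1 and 2, and -0.029 to 0.032 with 1 library left out. Rpl37a in p21 against p16 was 0.003 with DESeq2 and with its size factors, 0.008 with upper-quartile scaling, 0.005 with a CPM filter, 0.048 from replicates 1 and 2, and -0.018 to 0.032 with 1 library left out. The cause of these differences was not tested. Of the named values followed under the alternatives, 1309 stayed on their side of the threshold, 128 no longer passed, 17 newly passed and 16 changed sign. This tally leaves out some calls named above, such as Rps6, Rps12, Rps23 and Rpl7 in p21 against p16. Those calls were lost without p21 replicate 1 or p16 replicate 1, where Rpl22l1 was the only member called. Rpsa in p16 against control and Rps2 are also left out. Few or no counts limit what can be said of Rpl26, Rpl10l, Rpl3l, Rpl30, Rps27, Rpl34 and Rpl39l. The part of multi-mapping reads in the members' levels was not tested.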
